A study of Homo sapiens with 12 samples.

Results

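G0S2, PNPLA2, PLIN2, CPT1A, PDK4, ANGPTL4, FABP1, FABP2 and ACADVL are 9 genes of fatty acid oxidation and lipid droplet turnover, and their signals were followed across 12 bead arrays of Caco-2, a human colorectal cancer cell line. The list of genes was drawn up with earlier results of these arrays in view, and its members were then selected on the scanner's detection p-value: a probe had to reach a p under 0.05 on 3 or more of the 12 arrays to be kept. By that rule 14 of the 16 probes and 7 of the 9 genes were kept, out of 12566 genes tested and 47314 probes in the table. Of the 14 kept probes, 9 were detected on all 12 arrays. Just inside the threshold lay a CPT1A probe detected on 5 arrays, the PDK4 probe on 4 and a pair of ANGPTL4 probes on 4 each, and just outside lay FABP2 on 1 array and FABP1 on 0.

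The arrays formed 4 groups of 3. A control line was grown without doxycycline or with 5 µg/ml of it, and so was a line that the labels describe as holding an inducible hairpin (shRNA) that targets NR5A2, the gene of the nuclear receptor LRH-1. RNA was taken 96 hours after doxycycline was added. The control line is called native in the sample titles and a non-silencing vector control in another label, the labels do not say which hairpin was used, and nothing says that the 3 arrays of a group came from separate cultures, so each p-value speaks only of the spread among these arrays.

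Cells store fatty acids as triglyceride in lipid droplets, and lipolysis releases them again. Long-chain fatty acids enter mitochondria through the carnitine shuttle and are shortened by beta-oxidation, while pyruvate dehydrogenase kinases turn down the entry of pyruvate into the same organelle's metabolism. Many of these genes, PDK4, ANGPTL4, PLIN2, CPT1A and G0S2 among them, are known targets of the fatty acid-activated PPAR receptors, and the enterocyte handles large loads of dietary fat through the same machinery.

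The promoters below belong to the 3 genes that passed the test in a doxycycline comparison, G0S2, PDK4 and ACADVL, and are shown so that the letters can be read beside the values. Each is the 250 bases before an annotated start in RefSeq (GRCh38.p14), written in the direction of the gene, and RefSeq gives 2 starts for ACADVL here. Capitals in the first ACADVL window mark TTTATA, which is the TATA box motif TATAAA on the opposite strand.
G0S2, chr1:209675162-209675411, plus strand: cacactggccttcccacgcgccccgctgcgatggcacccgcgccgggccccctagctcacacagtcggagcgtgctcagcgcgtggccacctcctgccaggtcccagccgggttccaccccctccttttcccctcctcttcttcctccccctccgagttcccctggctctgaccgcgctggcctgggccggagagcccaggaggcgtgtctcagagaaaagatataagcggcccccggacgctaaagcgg
PDK4, chr7:95596517-95596766, minus strand: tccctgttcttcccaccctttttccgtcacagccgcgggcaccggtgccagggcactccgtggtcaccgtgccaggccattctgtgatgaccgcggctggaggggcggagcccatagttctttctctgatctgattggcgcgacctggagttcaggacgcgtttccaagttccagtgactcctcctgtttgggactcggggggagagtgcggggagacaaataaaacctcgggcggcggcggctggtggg
ACADVL, chr17:7216875-7217124, plus strand: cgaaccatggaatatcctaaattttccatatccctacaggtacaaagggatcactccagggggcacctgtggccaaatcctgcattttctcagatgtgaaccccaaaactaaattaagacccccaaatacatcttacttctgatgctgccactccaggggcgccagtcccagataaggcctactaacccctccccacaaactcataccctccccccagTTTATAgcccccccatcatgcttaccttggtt
ACADVL, chr17:7219688-7219937, plus strand: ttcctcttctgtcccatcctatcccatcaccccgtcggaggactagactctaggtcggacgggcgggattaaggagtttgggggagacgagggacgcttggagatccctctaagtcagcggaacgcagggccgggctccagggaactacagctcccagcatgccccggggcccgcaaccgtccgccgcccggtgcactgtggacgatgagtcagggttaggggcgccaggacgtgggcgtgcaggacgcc

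The G0S2 window was rich in G and C, which made up 69.2% of its bases. The PDK4 window had 62.8%, and the ACADVL windows had 49.6% and 65.6%. Over all 35116 promoters in the table the median was 58% and the quartiles were 46.4% and 68%. The 4 motifs below were searched on both strands in the windows of all 9 genes. The direct repeat of AGGTCA with 1 base between its copies, bound by PPAR with RXR, was in none of them and in 0.0171% of all promoters. CAAGGTCA, the extended form bound by LRH-1, was in none of the 9 genes' windows and in 1.14% of all promoters. The E-box CACGTG was in the PLIN2 window, at position -69 from the start, and in 6.34% of all promoters. TATAAA, the TATA box, was in the windows of 4 genes (FABP1, PLIN2, ANGPTL4 and ACADVL) and in 10.7% of all promoters. Its first base lay at -29 in PLIN2 and ANGPTL4, -31 in FABP1 and -32 in ACADVL, on the opposite strand in PLIN2 and ACADVL. CAAGGTCA holds the AGGTCA of the repeat, so matches to both can overlap. A gene was counted if any of its windows held a motif, whereas the shares are per promoter. The counts and shares are thus in unlike units. No match says only that these letters are not in the window.

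NR5A2, the gene the hairpin targets, was checked first. Its brighter probe read 10.10, 10.12 and 10.27 on the log2 scale in the control line, 11.18, 11.00 and 10.97 there with doxycycline, 10.13, 10.13 and 10.24 in the shRNA-labelled line, and 10.59, 10.59 and 10.84 there with doxycycline. It was higher with doxycycline in both lines. The differences were 0.89 (limma adjusted p = 0.000384) in the control line and 0.50 (adjusted p = 0.00995) in the shRNA-labelled line. Because the control line rose too, the rise within the shRNA-labelled line cannot show whether the hairpin lowered NR5A2. With doxycycline, the brighter probe was lower in the shRNA-labelled line than in the control line (-0.38, adjusted p = 0.0216). Without doxycycline the lines differed by 0.00 (adjusted p = 0.983). The responses of the lines differed by -0.39 (adjusted p = 0.231), which did not pass. The other kept NR5A2 probe also rose with doxycycline in both lines. Between lines with doxycycline it differed by -0.27 (limma adjusted p = 0.172 over all kept probes), which did not pass. Its responses differed by -0.09 (adjusted p = 0.882). Knockdown was not tested in any other way. The line is therefore called shRNA-labelled throughout, and no direction below is tied to loss of LRH-1. The arrays were alike in quality, with median intensities of 251 to 386, 41.2% to 44.7% of probes detected, and Pearson correlations of 0.987 to 0.993 between arrays of a group. All 12 lay on 1 chip. Of 12 intestinal epithelial markers 11 were detected, CDX1 being the exception.

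Levels below are log2 signals after background correction and quantile normalization, and differences are on the same log2 scale with their standard error (SE) from a limma fit over all 12 arrays. Adjusted p-values are Benjamini-Hochberg values over all 12566 genes, and a gene is said to have risen or fallen where its adjusted p was under 0.05. For probes other than a gene's brightest, p-values come from a fit over all 22417 kept probes, for which leaving out arrays was not run. Levels of different probes are not comparable with each other. A lower signal from a culture can mean fewer cells that make a transcript or less of it in each cell, and these arrays cannot tell them apart.

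G0S2, a small protein that binds and inhibits the triglyceride lipase encoded by PNPLA2, was the member whose level moved most, with a range of 2.42 between its group means. In the control line its signal was 9.01, 9.10 and 8.64, and with doxycycline it was 6.88, 7.06 and 7.17. In the shRNA-labelled line it was 8.38, 8.63 and 8.56, and with doxycycline 6.52, 6.32 and 6.62. All 6 arrays with doxycycline lay below all 6 without, in both lines, and the groups with and without doxycycline left a wide gap. With doxycycline G0S2 was detected on all 3 arrays of the control line and on 2 of 3 of the shRNA-labelled line.

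The fall of G0S2 with doxycycline in the control line was -1.88 (SE 0.14, 3.67-fold lower, limma adjusted p = 3.64e-05), which ranked it 11 among the 12566 genes, counted from the most lowered. In the shRNA-labelled line the difference was -2.04 (SE 0.14, 95% interval -2.34 to -1.73, 4.10-fold lower), rank 2. That value was known when the list was drawn up and is given as a description, with no p. The other p-values of G0S2 are descriptions as well, since the list was drawn up with earlier results of these arrays in view. The responses of the 2 lines differed by -0.16 (95% interval -0.59 to 0.27, adjusted p = 0.746), and a difference of either sign within that interval remains possible. The size of the fall depends on the background correction: without any it was -0.93 in the control line and -0.86 in the shRNA-labelled line.

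G0S2 also differed between the lines, in comparisons that share the shRNA-labelled arrays of the response known beforehand and so are descriptions. With doxycycline it was lower in the shRNA-labelled line (6.49 ± 0.15, SD, n = 3) than in the control line (7.04 ± 0.15, n = 3), a difference of -0.55 (SE 0.14, 1.46-fold, limma adjusted p = 0.0151), and the replicates did not overlap. That call was lost without background correction (-0.17, adjusted p = 0.160), with another background setting (-0.31, 0.0562), without control doxycycline replicate 3 (-0.48, 0.0610) and without shRNA-labelled doxycycline replicate 2 (-0.46, 0.0604). Without doxycycline the difference was -0.39 (95% interval -0.69 to -0.08, adjusted p = 0.0798), also with no overlap. It passed the threshold when arrays were weighted by quality (-0.42, 0.0159) or without control replicate 3 (-0.53, 0.0221).

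PNPLA2 encodes adipose triglyceride lipase, the enzyme that takes the first fatty acid from stored triglyceride. Its signal was 10.81, 10.54 and 10.66 in the control line and 10.64, 10.50 and 10.71 there with doxycycline. In the shRNA-labelled line it was 10.09, 9.94 and 10.13, and with doxycycline 10.13, 10.56 and 10.37. The shRNA-labelled line without doxycycline was the low group, below every array of the control line, and its own doxycycline arrays overlapped both. Without doxycycline PNPLA2 was 1.54-fold lower in the shRNA-labelled line (-0.62, SE 0.12, limma adjusted p = 0.00664). This call held under every alternative run and without any 1 array, where the adjusted p was at most 0.0327. With doxycycline the difference between lines was -0.26 (95% interval -0.54 to 0.01, adjusted p = 0.152), which passed only with array weights (-0.35, 0.0467).

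The lipase itself did not pass the test for doxycycline in either line. PNPLA2 differed by 0.30 in the shRNA-labelled line (95% interval 0.03 to 0.57, limma adjusted p = 0.148) and by -0.05 in the control line (95% interval -0.33 to 0.22, adjusted p = 0.817). These responses differed by 0.36 (95% interval -0.03 to 0.74, adjusted p = 0.354). The order of its means was control, control with doxycycline, shRNA-labelled with doxycycline and shRNA-labelled, and each neighbouring pair in that order overlapped.

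**Figure D1:**
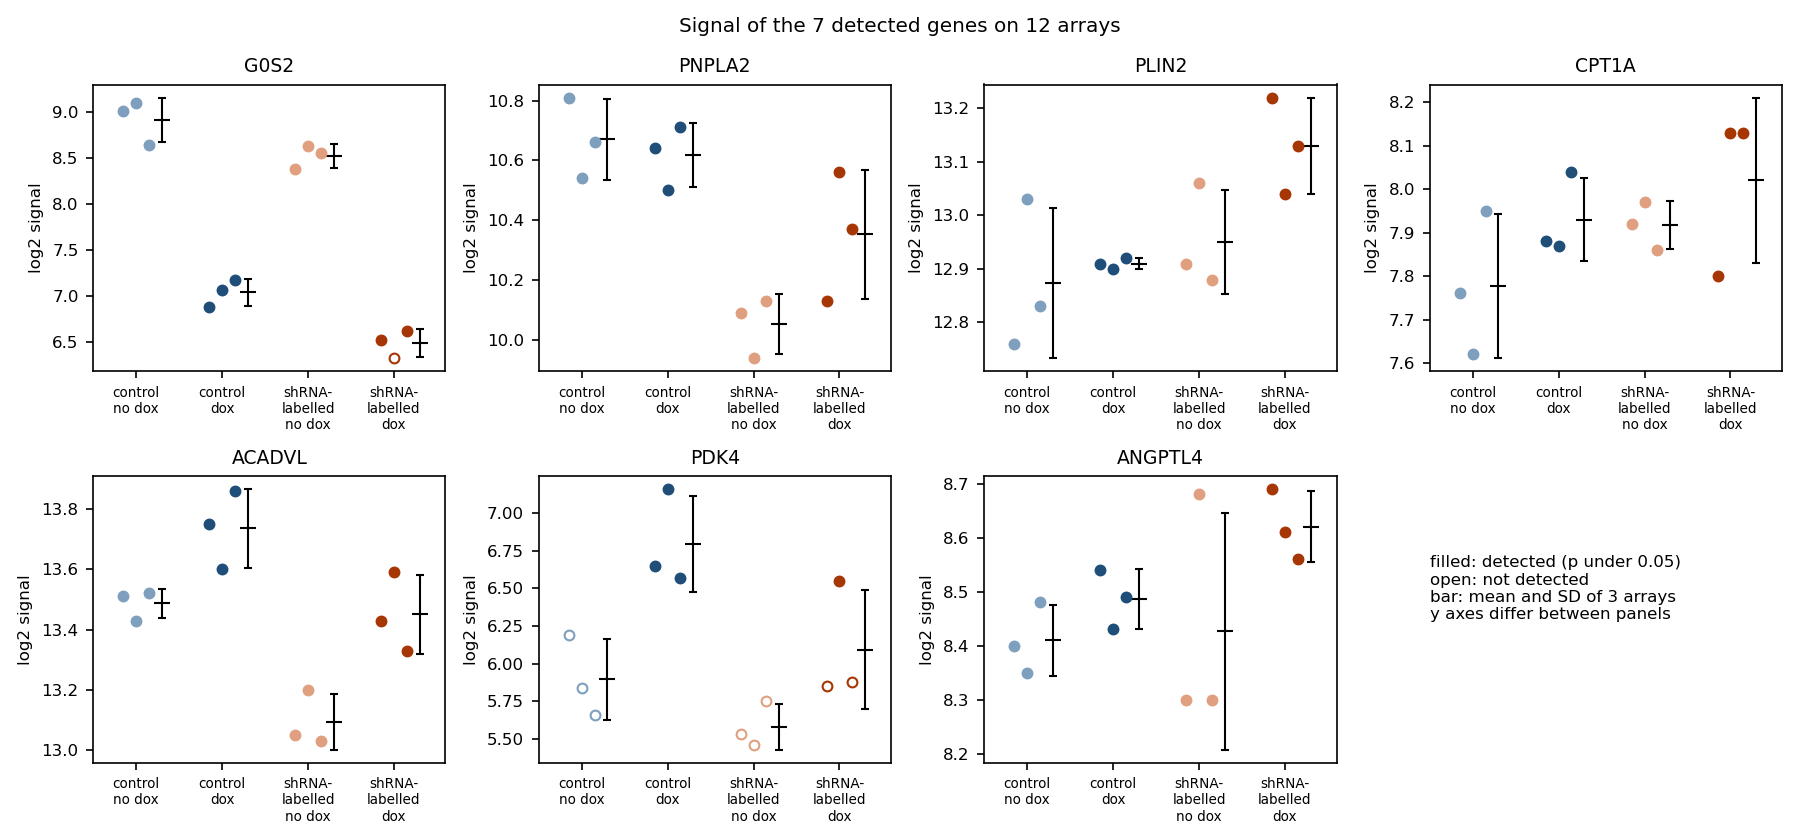
Log2 signal on each of the 12 arrays, by group, for the 7 detected genes, with the mean and SD of 3 arrays as a bar, filled where detected. The mean of G0S2 goes from 8.91 to 7.04 in the control line and from 8.53 to 6.49 in the shRNA-labelled line, while PLIN2 and CPT1A stay within a range of 0.26 and 0.24 between group means.

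PLIN2, the perilipin that coats droplets in most non-adipose cells, was among the steadier members. Its brighter probe read 12.76, 13.03 and 12.83 in the control line and 12.91, 12.90 and 12.92 with doxycycline. The shRNA-labelled line read 12.91, 13.06 and 12.88, and with doxycycline 13.22, 13.04 and 13.13. The compared groups overlapped except for the lines with doxycycline, where the shRNA-labelled line was the higher. That difference was 0.22 (95% interval 0.01 to 0.44, limma adjusted p = 0.131). The doxycycline differences were 0.18 (95% interval -0.04 to 0.39, adjusted p = 0.296) in the shRNA-labelled line and 0.03 (95% interval -0.18 to 0.25, adjusted p = 0.856) in the control line. A second PLIN2 probe had group means of 10.47 to 10.78 and no call.

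ANGPTL4, a secreted inhibitor of lipoprotein lipase, had 3 kept probes. The brightest, detected on all 12 arrays, read 8.40, 8.35 and 8.48 in the control line, 8.54, 8.43 and 8.49 there with doxycycline, 8.30, 8.68 and 8.30 in the shRNA-labelled line and 8.69, 8.61 and 8.56 there with doxycycline. Its group means spanned 0.21 and it had no call in any comparison: the doxycycline difference was 0.20 (95% interval -0.05 to 0.44, limma adjusted p = 0.312) in the shRNA-labelled line, past the threshold only with array weights (0.29, 0.0458), and 0.08 (95% interval -0.17 to 0.32, adjusted p = 0.712) in the control line.

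A dimmer ANGPTL4 probe, ILMN_1707727, which the platform annotation assigns to another RefSeq transcript, did not follow the brightest. It was detected on 3 of 3 control arrays with doxycycline, 1 of 3 without, and none of the 6 arrays of the shRNA-labelled line. Its signal was 6.99, 7.13 and 6.72 in the control line with doxycycline and 6.43, 6.43 and 6.10 in the shRNA-labelled line with doxycycline, with no overlap. It passed the filter only through the control line with doxycycline, where it is high, so its difference had to appear and is a description. The shRNA-labelled line was at least 1.39-fold lower (a measured difference of -0.63, SE 0.19, limma adjusted p = 0.0471 over 22417 probes), where the bound uses the lowest signal that counts as detected. On the brightest probe the same comparison was 0.14 (95% interval -0.11 to 0.38), with replicates that did not overlap. The other dim probe, detected on 4 arrays, had group means of 6.12 to 6.49 and no call.

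FABP1 and FABP2, the liver-type and intestinal-type fatty acid-binding proteins that carry fatty acids inside enterocytes, were at background. FABP1 was detected on 0 of 12 arrays, with signals from 5.37 to 6.19. FABP2 was detected on 1 array, a shRNA-labelled one without doxycycline, in a group that read 5.65, 6.15 and 6.63. Neither was tested. In these cultures neither enterocyte gene was called detected on 3 arrays, whereas 11 of the 12 epithelial markers were.

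CPT1A, the outer-membrane carnitine palmitoyltransferase that commits long-chain fatty acids to mitochondrial oxidation, had 3 kept probes. The brightest read 7.76, 7.62 and 7.95 in the control line and 7.88, 7.87 and 8.04 with doxycycline. The shRNA-labelled line read 7.92, 7.97 and 7.86, and with doxycycline 7.80, 8.13 and 8.13. The groups overlapped throughout. Doxycycline differed by 0.15 in the control line (95% interval -0.11 to 0.41, limma adjusted p = 0.444) and by 0.10 in the shRNA-labelled line (95% interval -0.16 to 0.36, adjusted p = 0.667), and the lines differed by 0.14 without it (adjusted p = 0.471) and 0.09 with it (adjusted p = 0.652).

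The other CPT1A probes, which the annotation assigns to a second RefSeq transcript, leaned the other way between lines. ILMN_1696316 read 8.09, 8.16 and 7.98 in the control line with doxycycline and 7.34, 7.36 and 7.72 in the shRNA-labelled line with it, with no overlap. The difference was -0.60 (SE 0.21, limma adjusted p = 0.0686 over probes), and without doxycycline it was -0.43 (adjusted p = 0.202). ILMN_1710052 was detected on 3 of 3 control arrays with doxycycline, on 1 of 3 in each of the groups control line without it and shRNA-labelled line with it, on 0 in the fourth group, and was kept through the group where it is high. Its difference of -0.77 between lines with doxycycline (SE 0.29, adjusted p = 0.0956) is thus against a group mostly at background. Neither passed, and the mean over the 3 probes turned the sign of the gene's difference between lines.

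ACADVL, the very long-chain acyl-CoA dehydrogenase that catalyses the first step of beta-oxidation on the inner membrane, differed by line. Its brightest probe read 13.51, 13.43 and 13.52 in the control line and 13.75, 13.60 and 13.86 with doxycycline. The shRNA-labelled line read 13.05, 13.20 and 13.03, and with doxycycline 13.43, 13.59 and 13.33. The shRNA-labelled line without doxycycline was lowest, the control line with doxycycline was highest, and the other groups lay between and overlapped each other.

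ACADVL was 1.31-fold lower in the shRNA-labelled line without doxycycline (-0.39, SE 0.10, limma adjusted p = 0.0254). The call was lost with median scaling (-0.27, 0.143), without control replicates 1 (0.0802) or 3 (0.0556) and without shRNA-labelled replicates 1 (0.0776) or 3 (0.0868), each leaving the adjusted p above the threshold. With doxycycline the difference was -0.28 (95% interval -0.51 to -0.06, adjusted p = 0.0702), and it passed with array weights (0.0468), with no background correction (0.0327) and with the mean of the 3 probes (-0.70, 0.00462).

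The dimmer ACADVL probes differed from the brightest in the size of the gap between lines. ILMN_2352009, assigned to a different RefSeq transcript from the brightest probe, read 10.62, 10.83 and 10.41 in the control line and 8.97, 9.92 and 9.24 in the shRNA-labelled line, and with doxycycline 10.72, 10.98 and 11.22 against 10.02, 9.83 and 9.78. The lines did not overlap in either condition. The differences were -1.24 without doxycycline (SE 0.22, limma adjusted p = 0.00522 over 22417 probes) and -1.10 with it (SE 0.22, adjusted p = 0.00582). ILMN_2263466 read 7.67, 8.37 and 8.66 against 7.45, 7.49 and 7.58 with doxycycline, a difference of -0.73 (adjusted p = 0.0971), and without doxycycline its lines overlapped and differed by -0.26 (adjusted p = 0.604). All 3 probes had lower means in the shRNA-labelled line in both conditions, and 2 of the 3 passed the test without doxycycline.

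With doxycycline ACADVL rose in the shRNA-labelled line by 0.36 (SE 0.10, 1.28-fold, limma adjusted p = 0.0451), with no overlap. The call was lost when any 1 of 9 of the 12 arrays was left out, with adjusted p-values up to 0.168 without shRNA-labelled doxycycline replicate 2. The exceptions were control doxycycline replicates 2 and 3 and shRNA-labelled doxycycline replicate 3. It was also lost with the replicate block (0.0747), with the compared groups fitted alone (0.103), without the filter on dim probes (0.0725) and with the mean of the 3 probes (0.130). In the control line the difference was 0.25 (95% interval 0.02 to 0.48, adjusted p = 0.128), which passed with median scaling (0.46, 0.0192), and the responses of the lines differed by 0.11 (95% interval -0.21 to 0.43).

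**Figure D2:**
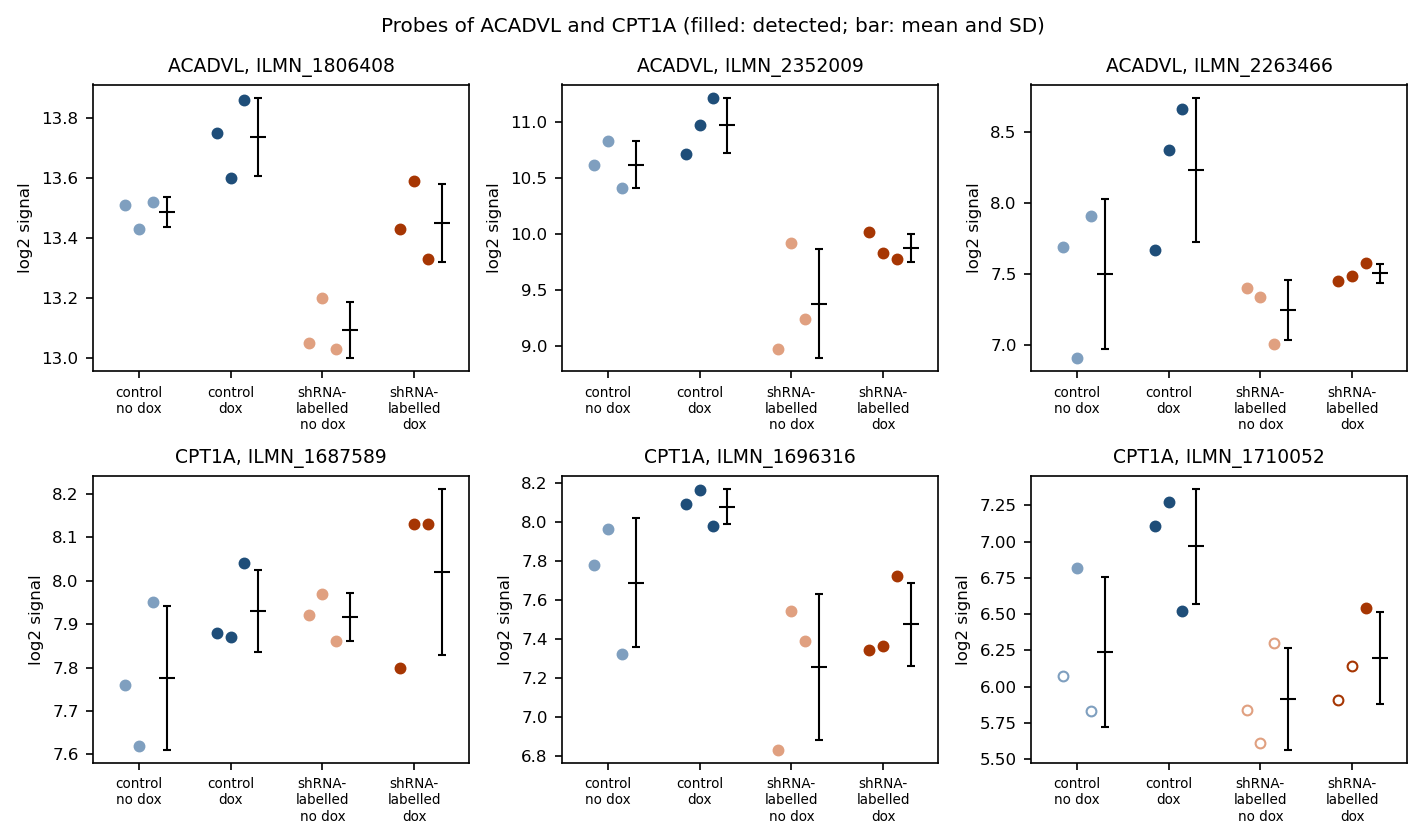
Log2 signal of the 3 kept probes of ACADVL and the 3 of CPT1A on the 12 arrays, by group, with the mean and SD of 3 arrays as a bar, filled where detected. The means of all ACADVL probes are lower in the shRNA-labelled line, as are those of the 2 dimmer CPT1A probes but not of the brightest.

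PDK4, a kinase that inactivates pyruvate dehydrogenase and so spares glucose when fatty acids are burned, was at the edge of detection. It was detected on 3 of 3 arrays of the control line with doxycycline, on 1 of 3 of the shRNA-labelled line with doxycycline and on none without doxycycline. Its signal was 6.19, 5.84 and 5.66 in the control line and 6.65, 7.16 and 6.57 with doxycycline. In the shRNA-labelled line it was 5.53, 5.46 and 5.75, and with doxycycline 5.85, 6.55 and 5.88. In each line the doxycycline arrays lay above those without.

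With doxycycline PDK4 was at least 1.25-fold higher in the control line (measured means 6.79 and 5.89, a difference of 0.90 with SE 0.22, limma adjusted p = 0.0155), where the group without doxycycline was not above background. It passed the filter only through the group where it is high, and a probe kept that way had to differ, so this value is a description and supports nothing about the list. The call was lost without control doxycycline replicate 2 (0.72, adjusted p = 0.0642), and the difference shrank to 0.29 with no background correction. In the shRNA-labelled line the difference was 0.51 (95% interval 0.04 to 0.99, adjusted p = 0.157), and the responses of the lines differed by -0.39 (95% interval -1.05 to 0.28, adjusted p = 0.587).

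Between lines with doxycycline PDK4 differed by -0.70 (SE 0.22, limma adjusted p = 0.0365), the shRNA-labelled line being lower. The shRNA-labelled group was detected on 1 of 3 arrays and the probe was kept through the control group, so this too is a description, with no fold. The call was lost with the compared groups alone (0.0772), with no background correction (-0.22, 0.0798), with no filter (0.0508), and without control doxycycline replicates 1 (0.0560) or 2 (0.132) or shRNA-labelled doxycycline replicates 1 (0.129) or 3 (0.104). Without doxycycline the lines differed by -0.31 (95% interval -0.79 to 0.16, adjusted p = 0.356), with both groups below detection.

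**Figure D3:**
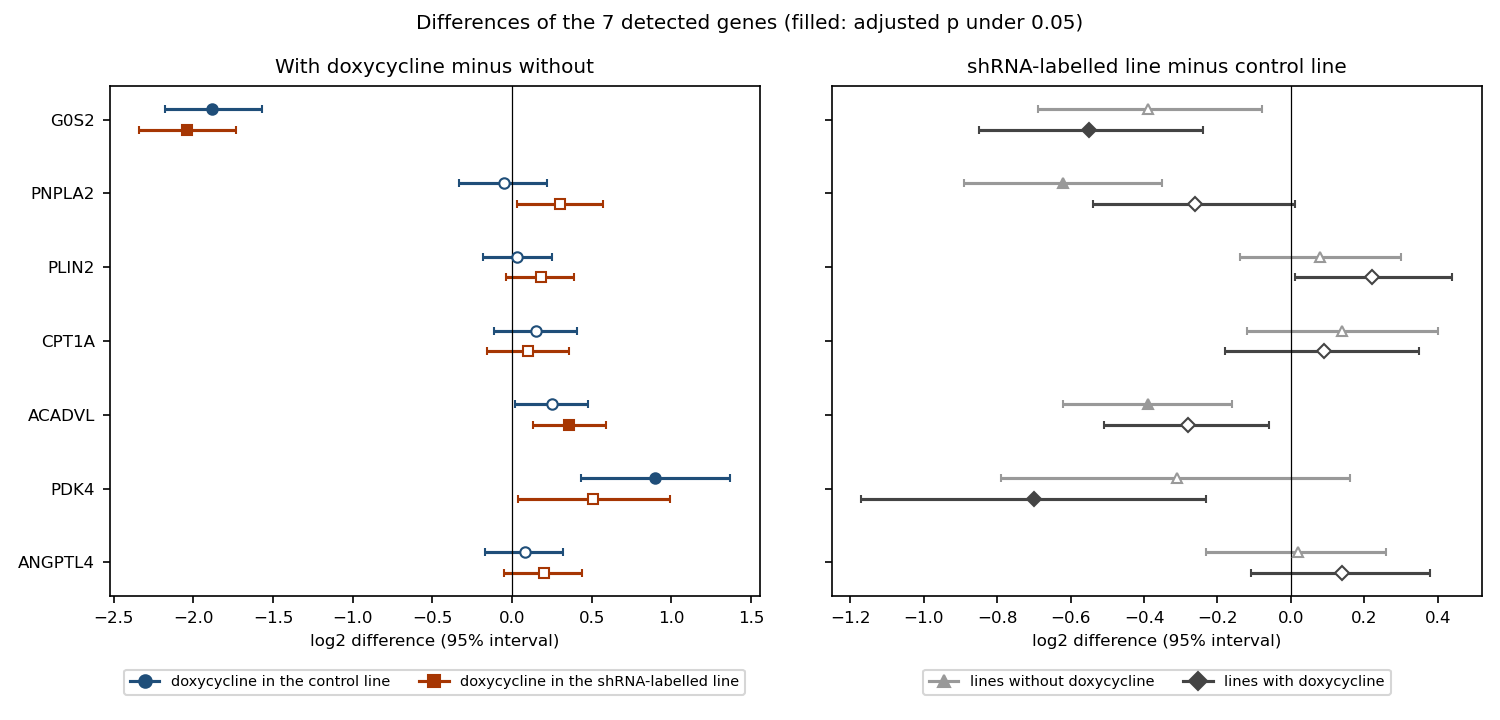
Log2 differences of the 7 detected genes with 95% intervals, for doxycycline in each line (left) and between lines (right), filled where the adjusted p was under 0.05. G0S2 stands far to the left in both lines, PDK4 to the right in the control line, and PNPLA2 and ACADVL to the left between lines without doxycycline.

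Counted over the list, 2 of the 7 tested genes were past the threshold in 4 of the 5 comparisons. Among them, G0S2 was listed with its response in the shRNA-labelled line known, and PDK4 was kept through its high group, so neither gene is evidence in any comparison. For doxycycline in the control line they were PDK4, higher, and G0S2, lower, where 16% of all genes were called, 7.88% higher and 8.11% lower. For doxycycline in the shRNA-labelled line they were ACADVL, higher, and G0S2, lower, where 11.5% of all genes were called, 6.49% higher and 5.01% lower. PNPLA2 and ACADVL were both lower in the shRNA-labelled line without doxycycline, where 16.3% of genes were called and 8.87% were lower. G0S2 and PDK4 were both lower in it with doxycycline, where 22.6% were called and 11.8% were lower. No member passed for the difference of the responses by limma, where 0.844% of genes were called, and none had an unadjusted p under 0.05 there. These counts are given beside the background and nothing is read from them about the list.

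Genes whose replicates did not overlap numbered 3 of 7 genes for doxycycline in the control line against 33.7% of all genes, 3 of 7 in the shRNA-labelled line against 30.5%, 3 of 7 between lines without doxycycline against 35.4%, and 5 of 7 with it against 39.4%. For doxycycline in both lines they were G0S2, PDK4 and ACADVL. Between lines without doxycycline they were G0S2, PNPLA2 and ACADVL, and with it all but PNPLA2 and CPT1A. G0S2 was listed with its response known and PDK4 was kept through its high group, so neither is evidence here. Over the 14 kept probes, 2 were called for doxycycline in the control line (11.4% of all probes), 1 in the shRNA-labelled line (7.48%), 3 between lines without doxycycline (11.1%), 3 with it (16.5%) and 0 for the difference of responses (0.125%). The probes called for doxycycline were those of G0S2 and PDK4 in the control line and of G0S2 in the other. Between lines without doxycycline they were probes of PNPLA2 and ACADVL. With doxycycline they were G0S2, the dim ANGPTL4 probe ILMN_1707727 and an ACADVL probe. The PDK4 probe and that ANGPTL4 probe were kept through their high group. The median member difference was 0.08 with doxycycline in the control line and 0.20 in the shRNA-labelled line, beside -0.01 and -0.02 over all genes. Between lines it was -0.31 without doxycycline and -0.26 with it, beside -0.01 and 0.00. The -0.31 is the value of PDK4, which was detected on no array of either group compared there. These counts and medians include G0S2 and PDK4, and nothing is read from them about the list.

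Summed signals of markers of other cell types differed between some groups, and their part in the results was not tested. Such a sum can move through few of its markers, as with CIDEC below. Whether the make-up of the cultures differed was not tested. Of 7 adipocyte markers 3 were kept and ADIPOQ, PLIN1 and RETN were detected on no array. Their summed normalized signal, on the linear scale, ranged over 4850 to 5180 in the control line and 7470 to 8530 there with doxycycline, and over 3920 to 4280 in the shRNA-labelled line and 5660 to 5970 there with doxycycline. Without CIDEC, which is also a lipid droplet gene, the sums in the same order were 1030 to 1130, 766 to 1200, 1380 to 1640 and 990 to 1140, so the higher sums with doxycycline came from CIDEC. Of 7 fibroblast markers 4 were kept, with COL1A2 and THY1 detected on no array, and their sums in that order were 3580 to 3940, 5680 to 6770, 3120 to 3330 and 4450 to 4780. Hepatocyte markers, 7 of 8 kept and CYP2E1 undetected, summed to 120000 to 126000 in the control line and 116000 to 123000 there with doxycycline, and to 107000 to 117000 in the shRNA-labelled line and 88200 to 103000 there with doxycycline. Of 7 leukocyte markers 4 were kept, with PTPRC and TYROBP detected on no array. Their sums were 12900 to 14200 in the control line and 10800 to 11500 in the shRNA-labelled line without doxycycline, with no overlap, as for PNPLA2 and ACADVL, and 12600 to 13600 and 11400 to 14300 with it.

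The wider pathway was read from 11 lists of 157 genes, of which 122 were tested. With doxycycline, 19 were higher and 5 lower in the control line (19.7% called, against 16% of all genes), and 12 were higher and 10 lower in the shRNA-labelled line (18.0%, against 11.5%). Between lines 13 were higher and 19 lower without doxycycline (26.2%, against 16.3%) and 10 higher and 30 lower with it (32.8%, against 22.6%). Of the tested genes 1 passed for the difference of responses (0.820%, against 0.844%). The lists were drawn up with earlier results in view, so these are descriptions. For each list below the same shares over all genes apply, 7.88% higher and 8.11% lower with doxycycline in the control line and 6.49% and 5.01% in the shRNA-labelled line. A call in 1 line and not in the other does not show that the lines differ.

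Among the neighbours of G0S2 and PNPLA2, of 10 lipolysis genes tested 3 were higher and 0 lower with doxycycline in the control line, and 1 higher and 1 lower in the shRNA-labelled line, beside 7.88% higher and 8.11% lower, and 6.49% and 5.01%, of all genes. MGLL, which cleaves the last fatty acid from monoglyceride, rose in both (0.76, SE 0.16, limma adjusted p = 0.00728, in the control line and 1.05, SE 0.16, adjusted p = 0.00139, in the other). Without background correction these were 0.40 and 0.37, still past the threshold. The shRNA-labelled line without doxycycline read 6.29, 6.54 and 6.76 for MGLL and was detected on 2 of 3 arrays. The 1.05 is thus set against signals near background. ABHD5, the protein that activates the PNPLA2 lipase and so opposes G0S2, rose in the control line by 0.60 (SE 0.10, adjusted p = 0.00225). Its arrays there read 10.23, 10.07 and 10.07 without doxycycline and 10.80, 10.64 and 10.73 with it, while the shRNA-labelled line read 10.50, 10.35 and 10.56 and then 10.30, 10.45 and 10.48. LIPA, the lysosomal acid lipase, rose in the control line by 0.56 (adjusted p = 0.00157), and it was the 1 gene of these lists called for the difference of responses, at -0.65 (SE 0.12, adjusted p = 0.0415). That call was lost without any 1 of 11 of the 12 arrays, shRNA-labelled doxycycline replicate 3 being the exception, with the replicate block (0.0615) and with no filter (0.0642). CES1, a carboxylesterase, fell in the shRNA-labelled line (-0.75, SE 0.10, adjusted p = 0.000726).

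Among the droplet proteins that go with PLIN2, of 12 tested 3 were higher with doxycycline in the control line, and 1 was higher and 1 lower in the shRNA-labelled line, beside 7.88% of all genes higher in the first and 6.49% higher and 5.01% lower in the second. CIDEC, which fuses droplets, rose in both (0.84, limma adjusted p = 0.000334, and 0.86, adjusted p = 0.000284). CIDEB, its relative in liver and gut, rose in the control line (0.64, adjusted p = 0.00951) and was lower in the shRNA-labelled line with doxycycline (-1.01, adjusted p = 0.000375). PLIN5, a perilipin that ties droplets to mitochondria, fell in the shRNA-labelled line (-1.51, SE 0.39, adjusted p = 0.0280). Its arrays there read 10.34, 9.87 and 9.59 without doxycycline and 8.98, 8.42 and 7.86 with it. The PLIN5 call was lost with the replicate block and without shRNA-labelled doxycycline replicates 2 or 3 or no-doxycycline replicates 1 or 2.

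**Figure D4:**
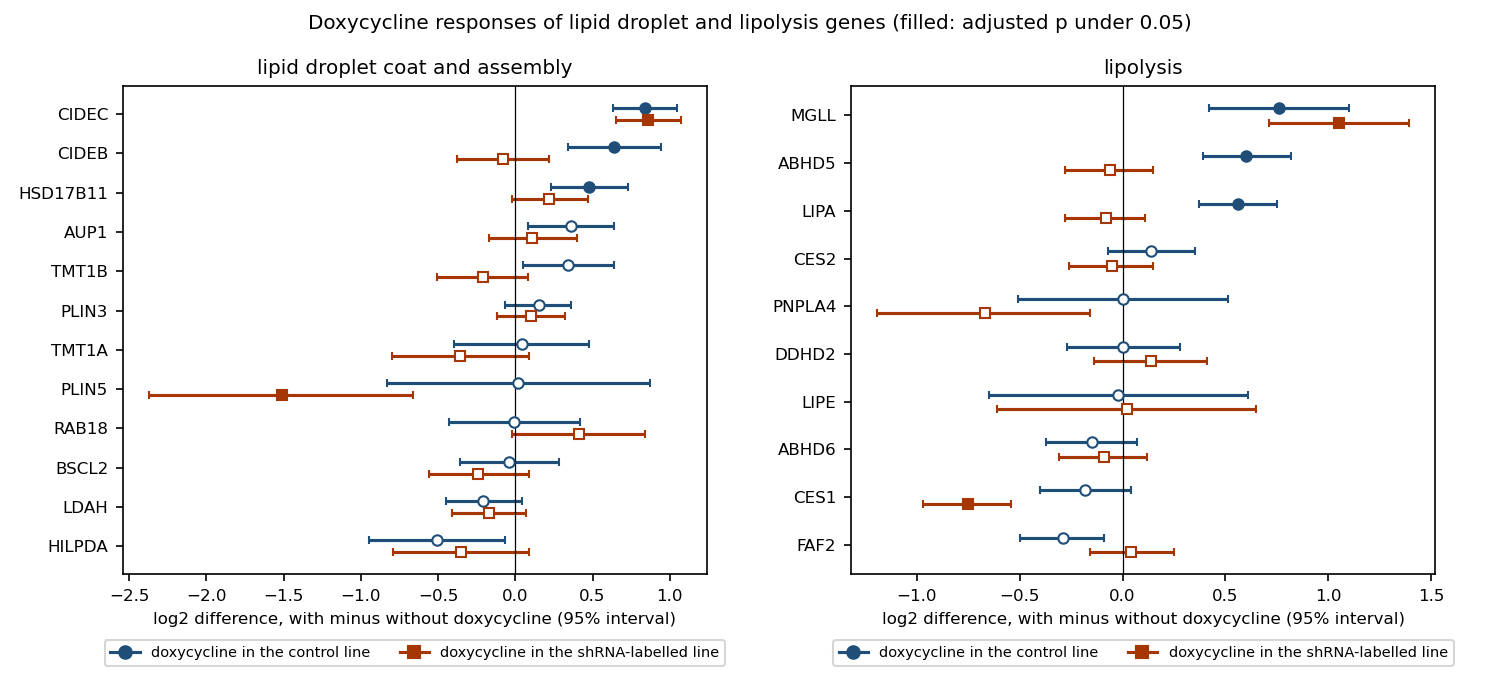
Log2 differences with 95% intervals for doxycycline in each line, over the tested genes of the droplet coat and assembly list (left) and the lipolysis list (right), filled where the adjusted p was under 0.05. CIDEC and MGLL lie right of 0 in both lines, ABHD5, LIPA and CIDEB in the control line, and PLIN5 and CES1 left of 0 in the shRNA-labelled line.

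Around CPT1A and ACADVL, of 17 beta-oxidation enzymes tested 3 were higher and 1 lower with doxycycline in the control line and 0 passed in the shRNA-labelled line, where 16% and 11.5% of all genes were called. ACADS, the short-chain dehydrogenase, rose in the control line by 0.82 (SE 0.18, limma adjusted p = 0.00997) and was lower in the shRNA-labelled line with doxycycline (-0.86, adjusted p = 0.00472), and without background correction these were 0.37 and -0.40. Of 8 carnitine shuttle genes, 0 were higher and 2 lower with doxycycline in the shRNA-labelled line, beside 6.49% and 5.01% of all genes. CROT, the peroxisomal carnitine octanoyltransferase, fell there (-1.02, adjusted p = 0.00204) and was lower between lines with doxycycline (-1.56, adjusted p = 5.47e-05). Among uptake genes, FABP5, a fatty acid-binding protein of epithelia, fell with doxycycline in both lines (-1.22, adjusted p = 0.000373, in the shRNA-labelled line and -0.67, adjusted p = 0.00896, in the control line). Its responses differed by -0.55 (95% interval -0.99 to -0.10, adjusted p = 0.213). The transporter SLC27A1 rose in both lines (1.38 in the control line and 1.04 in the other, adjusted p = 0.000210 and 0.00100), and by 0.65 and 0.57 without background correction.

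Beside PDK4, none of the 11 genes tested for pyruvate dehydrogenase and its kinases passed for doxycycline in either line. PDK3, another kinase of the complex, was higher in the shRNA-labelled line (1.08, limma adjusted p = 9.33e-05, without doxycycline and 0.95, adjusted p = 0.000109, with it). The PDK4 difference between lines with doxycycline had the opposite sign. It is only a description, from a probe near background that was kept through its high group. Of the genes that make triglyceride, GPAM, the mitochondrial glycerol-phosphate acyltransferase, fell in both lines (-0.67, adjusted p = 0.0133, and -0.75, adjusted p = 0.0105), with the control call lost without control doxycycline replicate 2 or no-doxycycline replicate 1. MTTP, which loads lipid onto lipoproteins, was higher in the shRNA-labelled line (2.11, adjusted p = 0.000588, without doxycycline, and 0.91 without background correction). The control line without doxycycline read 6.78, 6.95 and 5.77 and was detected on 2 of 3 arrays, so that size is set against signals near background. Of the PPAR receptors, PPARG rose with doxycycline in the shRNA-labelled line (0.53, adjusted p = 0.0179), a call lost without shRNA-labelled doxycycline replicate 2 or no-doxycycline replicates 1 or 3.

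Across the 12 arrays the genes whose log2 signals followed the members most closely were named by Pearson's r, as a description over arrays that share line and treatment. For G0S2 they were RORA (0.960), TMEM116 (0.953) and ROR1 (0.952), and RORA had group means of 9.08, 8.23, 9.06 and 7.99 in the order control, control with doxycycline, shRNA-labelled and shRNA-labelled with doxycycline. For PDK4 they were UBD (0.946), IDS (0.940) and DNASE1L1 (0.931). For ACADVL they were ZNF513 (0.947), VPS9D1 (0.947) and EBI3 (0.938).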

How the data were processed

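Signals came from 12 Illumina bead arrays, 3 per group, as deposited in a table with an intensity and a detection p-value for each probe; both are the authors' scanner values, and GenomeStudio and lumi are named in the submitters' processing notes with no role given. The authors' deposited values, taken as log2 from their range (median 6.64 per array), served as an alternative. In R 4.3.3 with limma 3.58.1, intensities were background-corrected by normexp with negative controls inferred from detection p (offset 16), put on the log2 scale and quantile-normalized. Probes detected (p under 0.05) on at least 3 arrays were kept (22417 of 47314), and each gene took its brightest kept probe (12566 genes). Of all probes, 30109 carry 1 gene symbol, 8 several and 17197 none, from the platform annotation. A model of 4 group means with 5 contrasts was fitted with lmFit and eBayes, adjusting by Benjamini-Hochberg over all genes; a second fit covered all kept probes. The fit was tested on simulated data.

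The members and gene lists were chosen with earlier results of these data known. Named genes are all members, up to 3 per list and comparison with the smallest adjusted p, and, for the 3 members with the largest range of group means, the 3 genes of highest correlation, of which a selection is printed. Alternatives were another offset and background, none, median scaling, the authors' values, stricter and no filters, the mean of probes, array weights, the compared groups alone, a replicate block and leaving out each array; those for the pathway genes were added after seeing the data. Array number limits the precision.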

Additional observations from a re-analysis of the deposited data

Results flagged for a closer look

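LIPA, the lysosomal acid lipase, responded differently to doxycycline in the 2 lines by the test of that difference (-0.65, SE 0.12, limma adjusted p = 0.0415). Its arrays read 12.59, 12.64 and 12.57 in the control line and 13.26, 13.17 and 13.06 with doxycycline, and 12.68, 12.72 and 12.72 in the shRNA-labelled line and 12.62, 12.70 and 12.55 with it. The call was lost without any 1 of 11 of the 12 arrays, with the adjusted p reaching 0.116, and also with the replicate block (0.0615) and with no filter (0.0642). LIPA was the 1 gene called among the 122 tested of the pathway lists (0.820%, against 0.844% of all genes). Those lists were drawn up with earlier results in view, so this is a description.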

How the results depend on the processing

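Over the alternatives, the fall of G0S2 with doxycycline in the control line stayed past the threshold, as did the lower PNPLA2 of the shRNA-labelled line without doxycycline. The count of members called (2 in 4 comparisons) became 1 for doxycycline in the control line with detection p under 0.01, which drops PDK4, and 3 with median scaling, which adds ACADVL; 1 for doxycycline in the shRNA-labelled line with the compared groups alone, the mean of probes, no filter or the replicate block, and 3 with array weights, which add ANGPTL4; 1 between lines without doxycycline with median scaling, and 3 with array weights, which add G0S2; and between lines with doxycycline 4 with array weights, 3 with the mean of probes and 1 with detection p under 0.01, the compared groups alone, no background correction, no filter or offset 50. Leaving out each array gave 1 to 2 in each of these 4. Over all genes, the 106 called for the difference of responses became 527 with array weights, 173 with detection p under 0.01, 318 with no background correction, 43 with no filter and 207 with offset 50, and 15 to 206 leaving out each array. For doxycycline in the shRNA-labelled line 1445 became 2698 with array weights, 958 with the compared groups alone and 781 to 1547 leaving out each array; in the control line 2009 became 1188 to 2091; between lines without doxycycline 2052 became 3370 with array weights and 1136 to 2165, and with it 2846 became 2099 to 2912. None of the differences that turned sign was called, except CES1 between lines without doxycycline (-0.45, then 0.09 with the mean of probes). With the mean of probes these were ACADVL (-0.07) and ANGPTL4 (-0.07) for the difference of responses, ANGPTL4 between lines with (-0.11) and without doxycycline (-0.04), CPT1A likewise (-0.43 and -0.21) and PLIN2 without it (0.00). Others were ACADVL for the difference of responses with median scaling (-0.05), G0S2 there with no background correction (0.07) and offset 50 (0.01), ANGPTL4 without doxycycline (-0.04) and CPT1A with it (0.00) with array weights. Leaving out 1 array turned ANGPTL4 between lines without doxycycline (-0.11 to 0.08), CPT1A for the difference of responses (-0.14 to 0.06), and PLIN2 (-0.02 to 0.11) and PNPLA2 (-0.12 to 0.01) for doxycycline in the control line. Same-numbered arrays of the groups correlated at -0.19 to 0.23 in their deviations from the group means, and 8 of 12 arrays correlated best with their own number. Some variation shared by number is thus possible, and the main fit did not model it. With the numbers as a replicate block, ACADVL (0.36, limma adjusted p = 0.0747) lost its call in the shRNA-labelled line. PLIN5 (0.0508) and SLC22A5 (0.0507) lost theirs there, as did LPIN1 in the control line (0.0535) and the LIPA difference of responses (0.0615). Of 92 calls of named pathway genes, 60 held under every alternative and array left out. The causes were not tested. Signals near background, PDK4 and the dim probes above all, limit what these arrays can resolve.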
